A study of Mus musculus with 10 samples.

Results

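The 4 ERBB receptor genes (Egfr, Erbb2, Erbb3 and Erbb4) and 5 genes of their ligands (Nrg1, Nrg2, Nrg4, Hbegf and Btc) were examined in hearts of trained and sedentary mice. These 9 genes were chosen by name, by their known place as receptors or ligands of 1 signaling family. Their values were not a criterion, but earlier results of these data were known when they were chosen. They stand among 56748 genes in the count tables, and all 9 passed the filter on low counts that left 15454 genes to test. None of the 9 passed the false discovery rate (FDR) of 0.1 used for the comparison. The nearest were Erbb4, whose mean was higher in the training hearts, and Egfr, whose mean was lower.

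RNA was sequenced from the whole heart, both atria and ventricles, of wild-type C57BL/6 male mice bought at 8 weeks of age. The 5 training mice were forced to run on a treadmill for 8 weeks, at 15 m/min for 120 minutes a day on 5 days a week, after acclimatization at lower speeds. The 5 sedentary mice were age-matched controls without this training. Each heart gave 1 library, so that the replicates are separate animals, and the time of day at which hearts were taken is not given in the sources used here.

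ERBB receptors are tyrosine kinases of the cell membrane that are switched on when a ligand of the epidermal growth factor (EGF) family brings receptors together as dimers. ERBB2 binds no known ligand and serves as the preferred partner of the others, ERBB3 has little kinase activity of its own, and ERBB4 is the main neuregulin receptor of cardiomyocytes. In the heart, neuregulin-1 comes largely from endothelial and endocardial cells and acts on neighbouring cardiomyocytes, where loss of Nrg1, Erbb2 or Erbb4 stops the formation of trabeculae in the embryo.

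The kinase core shows how alike the receptor genes are and why their reads can still be told apart. The stretch that codes for the catalytic loop is given here for the 4 receptors, read from GENCODE M39 transcripts on the mouse genome GRCm39, with the codon of the catalytic aspartate in capitals.
Egfr: caccgtGACttggcagccaggaat
Erbb2: cacaggGACctagctgcccgaaac
Erbb3: cataggGACcttgcgctccggaat
Erbb4: catcggGATctggcagcccgcaat
The stretch lies in exon 21 of each gene. It is at chr11:16854338-16854361 on the plus strand for Egfr and at chr11:98325073-98325096 on the plus strand for Erbb2. For Erbb3 it is at chr10:128408402-128408425 and for Erbb4 at chr1:68119898-68119921, both on the minus strand. All 4 genes code for aspartate at this codon in the mouse reference, and Erbb4 spells it differently from the other receptors. Any 2 of the receptors match at 15 to 18 of the 24 bases, with Egfr and Erbb4 the closest pair. The longest exact stretch that transcripts of any 2 of the 9 genes share is 25 bases (Nrg1 and Nrg2), against reads of 100 bases.

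Counts that fell on genes numbered 29461697 to 35945417 per training library and 35196993 to 39431030 per sedentary library. Values are given as CPM, the counts scaled to a common library size, with TMM correction of that size, and fold changes are log2 of training over sedentary. In the edgeR quasi-likelihood test, 1084 of the 15454 genes passed (7.01%), of which 425 were higher (2.75% of those tested) and 659 lower (4.26%) in the training hearts. Cardiomyocyte markers were abundant in every heart, and their 9 genes summed to between 63410 and 67126 CPM in the training and between 66746 and 76470 CPM in the sedentary hearts. All 9 were below 0 in log2 fold change (median -0.11), with Actc1 lower by the test, whereas all 8 fibroblast markers were above 0 (median 0.22), with Pdgfra, Lum and Gsn higher by the test. The part of these shifts in the values of the receptors and ligands was not tested. No marker of the lists used was at 0 in all hearts. The 8 atrial markers summed to between 5368 and 7986 CPM in the training and between 2983 and 7125 CPM in the sedentary hearts, and 4 of them were higher by the test. Sedentary heart 1 stood apart from the other sedentary hearts, with the highest atrial sum of its group (7125 CPM), an adipocyte sum of 140 CPM against at most 49.9, and a sum of lymphocyte markers of 9.56 CPM against at most 1.18. Training heart 4 likewise had the highest adipocyte sum (179.9 CPM) and lymphocyte sum (6.07 CPM) of its group. In whole hearts, a change in the share of a cell type and a change in RNA per cell cannot be told apart.

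Per transcript length, the members were expressed at low to moderate levels (TPM, the share of transcripts after division by gene length, from the deposited RSEM tables). Hbegf led with a median of 8.9 TPM (range 5.9 to 12.6 over the 10 hearts), above 60.5% of the tested genes. It was followed by Erbb3 at 3.58 TPM, Erbb2 at 3.23 TPM and Egfr at 2.12 TPM. Nrg2 at 1.95 TPM, Erbb4 at 1.76 TPM and Nrg4 at 1.37 TPM came next. Btc at 0.69 TPM and Nrg1 at 0.545 TPM were lowest, above 16.8% and 14.2% of the tested genes. Only 2 steps in this order were free of overlap between neighbours, namely those from Hbegf to Erbb3 and from Nrg4 to Btc, each seen in 10 of 10 hearts. All other neighbours overlapped in their ranges over the hearts, so that, for example, Egfr and Nrg2 did not differ beyond their spread (Egfr above in 6 of 10 hearts). The receptors were thus spread over a narrow band, whereas the ligands held both the highest and the lowest levels. TPM depend on the gene length that RSEM averages over isoforms. Between hearts this length varied 1.69-fold for Egfr, 1.71-fold for Nrg1, 1.6-fold for Nrg2 and 1.56-fold for Nrg4. For Erbb3 and Hbegf it was almost constant (1.00-fold). Within each gene, the groups were therefore compared on counts. In CPM, which are not divided by length, the step from Nrg4 to Btc was not seen in both groups. The means of Nrg4 and Btc were 2.17 and 1.77 CPM in the training and 1.80 and 2.10 CPM in the sedentary hearts.

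**Figure D1:**
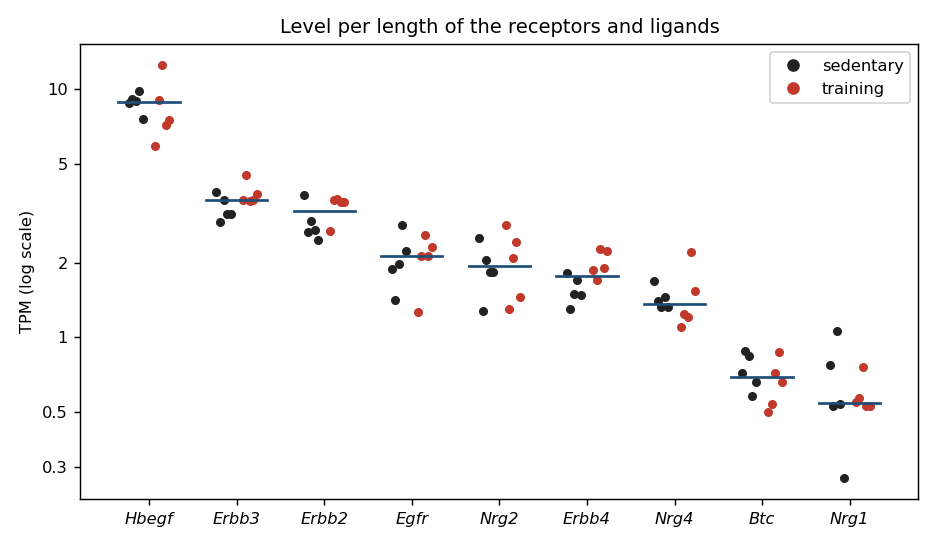
TPM on a log scale for the 9 genes in 5 sedentary (black) and 5 training (red) hearts, with the median of all 10 as a bar. Hbegf sits apart at the top with a median of 8.9 TPM, and Btc and Nrg1 lie lowest at 0.69 and 0.545 TPM.

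Among the 9 genes, the edgeR test at an FDR below 0.1 called 0 (7.01% of all tested genes were called), DESeq2 called 1, Erbb4 (9.53% of all genes were called by DESeq2), and 2, Erbb4 and Egfr, had an unadjusted p under 0.05 (20.0% of all genes did). Left without sedentary heart 1, the edgeR test called 1 member (Erbb4), where 1490 of 15561 tested genes were called. Without training heart 4 it called 0, where 512 of 15582 tested genes were called. In 0 of the 9 were the hearts of the groups free of overlap, as compared with 5.06% of all tested genes. The log2 fold change was above 0 for 5 and below 0 for 4 members, with a median of 0.08 beside 0.00026 over all tested genes. The median size of the log2 fold change, irrespective of direction, was 0.16 for the members, 0.09 for all tested genes and 0.26 for the called genes.

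**Figure D2:**
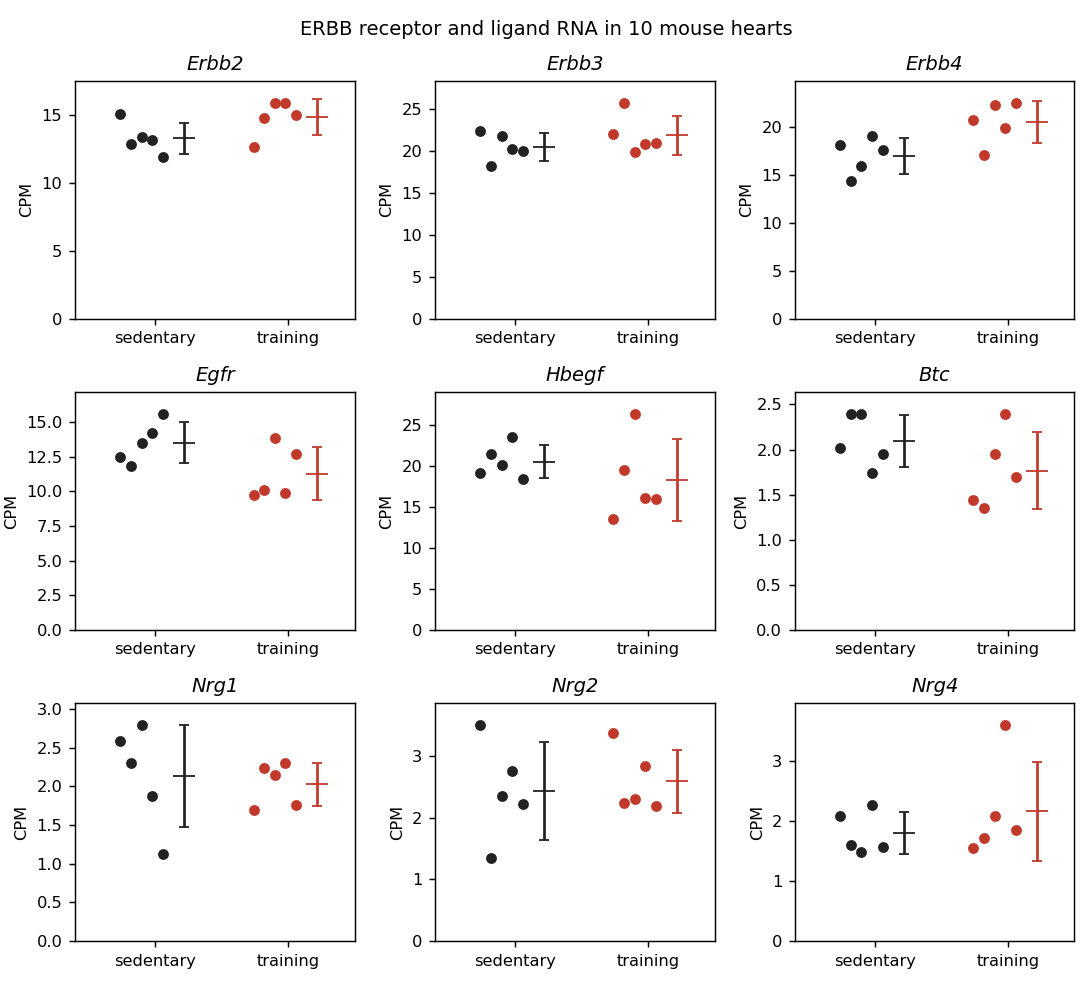
CPM of each receptor and ligand gene in every heart, sedentary in black and training in red, with mean and SD (n = 5) beside the points; each panel starts at 0. The groups overlap in all 9 panels, and for Erbb4 4 training hearts lie above the highest sedentary heart.

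Erbb4, the neuregulin receptor of cardiomyocytes (ENSMUSG00000062209, chr1:68071345-69147619, minus strand), was at 20.7, 17.1, 22.3, 20.0 and 22.6 CPM in training hearts 1 to 5 and at 18.2, 14.4, 15.9, 19.1 and 17.6 CPM in sedentary hearts 1 to 5. All 5 training hearts were above the sedentary mean and 4 were above every sedentary heart, whereas training heart 2 lay within the sedentary range. The means were 20.5 ± 2.19 CPM (SD, n = 5) and 17.0 ± 1.88 CPM (SD, n = 5). The log2 fold change was 0.27 (standard error, SE, 0.086, 95% interval 0.08 to 0.45), with an unadjusted p of 0.00784 and an adjusted p of 0.106 (edgeR, Benjamini-Hochberg), just outside the threshold. DESeq2 gave an adjusted p of 0.0482 (Benjamini-Hochberg). Over 21 alternative fits the log2 fold change stayed above 0, between 0.11 and 0.33. The adjusted p ranged from 0.0422 to 0.738 over these edgeR and DESeq2 fits, and 7 of the 21 called the gene. Among these was the edgeR fit with mouse number as a block (adjusted p = 0.0529), although the shared numbers are no pairing. Fits without training heart 2 (log2 0.33, adjusted p = 0.0422), without sedentary heart 1 (log2 0.29, adjusted p = 0.0867) or without sedentary heart 4 (log2 0.31, adjusted p = 0.0953) called it in edgeR.

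The lowest value for Erbb4 came from the fit that held an atrial marker score constant, with a log2 fold change of 0.11 and an adjusted p of 0.738 (edgeR, Benjamini-Hochberg). That fit called 62 of all tested genes, beside 1084 without the covariate, so few genes of any kind passed in it. The score itself differed between the groups, with means of 0.32 in the training and -0.32 in the sedentary hearts. The 8 atrial markers were all above 0 in log2 fold change, with a median of 0.49. Kcnj3, the potassium channel subunit of atrial and pacemaker cells and one of these markers, was among the 2 genes most like Erbb4 across hearts (Pearson r = 0.94 over 10 hearts after removal of the group means). It was higher in the training hearts by a log2 fold change of 0.36 (adjusted p = 0.0379, edgeR with Benjamini-Hochberg adjustment). The part of atrial tissue in the Erbb4 difference was not tested beyond this covariate.

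Erbb2, the co-receptor without a ligand (ENSMUSG00000062312, chr11:98303203-98328542, plus strand), was at 12.7, 14.8, 15.9, 15.9 and 15.0 CPM in the training hearts and at 15.1, 12.9, 13.4, 13.1 and 11.9 CPM in the sedentary hearts. Of the training hearts 4 were above the sedentary mean, but training heart 1 was among the low values and sedentary heart 1 among the high ones. The means of 14.9 ± 1.34 and 13.3 ± 1.15 CPM (SD, n = 5 each) differed by 0.16 on the log2 scale (SE 0.075, 95% interval -0.0019 to 0.32, adjusted p = 0.254, edgeR with Benjamini-Hochberg adjustment). It was not called in any of the 21 alternative fits, in which it ranged from 0.04 with the atrial score as a covariate to 0.21.

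Erbb3, a partner of ERBB2 that is prominent in Schwann cells (ENSMUSG00000018166, chr10:128403392-128425811, minus strand), was at 22.1, 25.8, 19.8, 20.9 and 20.9 CPM in the training hearts. In the sedentary hearts it was at 22.4, 18.2, 21.8, 20.2 and 19.9 CPM, so that the groups overlapped almost throughout and training heart 2 alone lay above all sedentary hearts. Erbb3 had a log2 fold change of 0.09 (SE 0.075, 95% interval -0.07 to 0.25, adjusted p = 0.537, edgeR with Benjamini-Hochberg adjustment). Without training heart 2 it was 0.027, and over the 21 alternative fits it ranged from 0.027 to 0.15. Of the 8 Schwann cell markers, 0 were called by edgeR and 5 had an unadjusted p under 0.05 (20.0% of all genes did). The log2 fold change was above 0 for 7 of the 8, with a median of 0.26. Their sum was between 20.9 and 28.3 CPM in the training and between 18.0 and 24.2 CPM in the sedentary hearts. Training heart 2, the highest for Erbb3, had the lowest Schwann sum of its group (20.9 CPM).

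Egfr, the receptor of EGF, HBEGF and betacellulin (ENSMUSG00000020122, chr11:16702198-16868158, plus strand), was at 9.71, 10.1, 13.9, 9.87 and 12.7 CPM in training hearts 1 to 5. The sedentary hearts were at 12.5, 11.9, 13.5, 14.2 and 15.6 CPM. Training hearts 1, 2 and 4 lay below every sedentary heart, while training hearts 3 and 5 lay inside the sedentary range. The means were 11.3 ± 1.92 CPM and 13.5 ± 1.48 CPM (SD, n = 5 each), a log2 fold change of -0.26 (SE 0.107, 95% interval -0.49 to -0.03). The unadjusted p was 0.0276 and the adjusted p 0.19 (edgeR, Benjamini-Hochberg).

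Over the 21 alternative fits Egfr stayed below 0, between -0.35 and -0.21. The adjusted p ranged from 0.0915 to 0.488 over these edgeR and DESeq2 fits, and 3 of the 21 called the gene. Among these was the edgeR fit with mouse number as a block (adjusted p = 0.0923), although the shared numbers are no pairing. Without training heart 3 the log2 fold change was -0.35 (adjusted p = 0.0974, edgeR with Benjamini-Hochberg adjustment). With a clock gene score as a covariate it was -0.33 (adjusted p = 0.0915, edgeR with Benjamini-Hochberg adjustment). The score is a mean over 14 clock genes, 8 above and 6 below 0 in log2 fold change. Shifts in opposite directions offset each other in it, and its group means were 0.06 in the training and -0.06 in the sedentary hearts. The fit therefore does not hold the state of the clock genes constant. Of the 14 clock genes 5 were higher and 3 lower by the test (2.75% and 4.26% of all genes). Their part in the Egfr difference was not tested further. In TPM the difference was not seen, with 2.08 ± 0.498 in the training and 2.07 ± 0.525 in the sedentary hearts (SD, n = 5 each). The averaged length of Egfr in the same tables had a median of 5898 bases in the training and 6895 bases in the sedentary hearts, with overlapping ranges of 4953 to 7801 and 4841 to 8181 bases. RSEM's expected counts of the gene, which are not divided by this length, gave a log2 fold change of -0.25.

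The coefficient of variation between hearts of 1 group was 8.17% to 17.0% for the receptors and 9.86% to 38.3% for the 5 ligands, 4 of which rested on few counts. Nrg1, the neuregulin of endocardium and endothelium (ENSMUSG00000062991, chr8:32303906-33374825, minus strand), was at 1.70, 2.23, 2.14, 2.30 and 1.76 CPM in the training hearts. The sedentary hearts were at 2.58, 2.31, 2.79, 1.88 and 1.12 CPM, a wider spread that held all training values. The log2 fold change of -0.08 had an SE of 0.203 and a 95% interval from -0.51 to 0.36 (adjusted p = 0.873, edgeR with Benjamini-Hochberg adjustment), on 41 to 105 counts per heart. The coefficient of variation of Nrg1 in the sedentary hearts was 31.0%, where counting alone would give 11.7%. Its sign turned with the clock score as a covariate (log2 0.18) and without sedentary heart 1 or sedentary heart 3 (log2 0.0014 and 0.042), while it was -0.29 with the atrial score as a covariate and -0.24 without sedentary heart 5. Of the cell types that make it, 9 endothelial markers had a median log2 fold change of -0.09. Flt1, Tie1 and Esam of them were lower by the test (4.26% of all genes were). The 5 endocardial markers had a median of 0.26, with Cytl1 higher (2.75% of all genes were). The endothelial sum was between 987 and 1057 CPM in the training and between 1091 and 1141 CPM in the sedentary hearts, and the part of this in the Nrg1 values was not tested.

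Nrg2, the neuregulin best known from the nervous system (ENSMUSG00000060275, chr18:36149819-36330456, minus strand), was at 3.37, 2.23, 2.30, 2.83 and 2.19 CPM in the training hearts. It was at 3.50, 1.34, 2.34, 2.76 and 2.22 CPM in the sedentary hearts, which held both the highest and the lowest value. The log2 fold change of 0.08 (SE 0.209, 95% interval -0.37 to 0.53, adjusted p = 0.87, edgeR with Benjamini-Hochberg adjustment) rested on 46 to 141 counts per heart. Its sign turned without training heart 1 (log2 -0.034) or sedentary heart 2 (log2 -0.068) and with the atrial score as a covariate (log2 -0.36).

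Nrg4, an ERBB4 ligand that is made in quantity by brown fat (ENSMUSG00000032311, chr9:55121336-55234128, minus strand), was at 1.56, 1.72, 2.09, 3.61 and 1.86 CPM in the training hearts. In the sedentary hearts it was at 2.09, 1.61, 1.49, 2.28 and 1.56 CPM. Training heart 4 stood alone above the others. The log2 fold change of 0.26 (SE 0.22, 95% interval -0.21 to 0.73, adjusted p = 0.563, edgeR with Benjamini-Hochberg adjustment) became 0.00059 when that heart was left out and -0.014 with the atrial score as a covariate. This heart also had the highest sum of adipocyte markers, 179.9 CPM against 21.1 to 86.9 CPM in the other training hearts. Sedentary heart 1, with an adipocyte sum of 140 CPM, was at 2.09 CPM for Nrg4. Ucp1 of the same list, a gene of brown fat, did not pass the filter on low counts. It was at 6.35 CPM in training heart 4 and at 0 to 2.06 CPM in the other training hearts. In the sedentary hearts it was at 0 to 0.654 CPM, with 0 in sedentary heart 1. The part of fat tissue in these values was not tested. Nrg4 shares 1595 exon bases with Fbxo22 on the other strand, and 78.6% of the counts of both strands at Nrg4 were on that other strand (229 to 300 per heart). For every other member at most 11 counts per heart were antisense.

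Hbegf, the heparin-binding ligand of EGFR and ERBB4 (ENSMUSG00000024486, chr18:36637980-36649677, minus strand), was at 13.5, 19.5, 26.3, 16.0 and 15.9 CPM in the training hearts. It was at 19.1, 21.4, 20.1, 23.5 and 18.4 CPM in the sedentary hearts. Training hearts 1, 4 and 5 lay below all sedentary hearts, yet training heart 3 lay above all of them, and the coefficient of variation was 27.3% in the training and 9.86% in the sedentary hearts, where counting alone would give 4.11% and 3.65%. Its log2 fold change was -0.16 (SE 0.143, 95% interval -0.47 to 0.14, adjusted p = 0.575, edgeR with Benjamini-Hochberg adjustment). Without training heart 3 it was -0.33 with an unadjusted p of 0.00508 and an adjusted p of 0.12 (edgeR, Benjamini-Hochberg), without training heart 1 it was -0.07, and with the atrial score as a covariate it was -0.27. The same training heart 3 was the highest of its group for Egfr, and it had the highest atrial (7986 CPM), endocardial (341 CPM) and fibroblast (3802 CPM) marker sums of all 10 hearts.

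Btc, betacellulin, a ligand of EGFR and ERBB4 (ENSMUSG00000082361, chr5:91505120-91550883, minus strand), was at 1.44, 1.35, 1.95, 2.40 and 1.69 CPM in the training hearts. The sedentary hearts were at 2.01, 2.39, 2.40, 1.74 and 1.95 CPM. Training hearts 1, 2 and 5 were below all sedentary hearts, and training heart 4 was above them by a margin within counting error. Btc had a log2 fold change of -0.25 (SE 0.164, 95% interval -0.60 to 0.10, adjusted p = 0.435, edgeR with Benjamini-Hochberg adjustment), on 47 to 90 counts per heart, and it was -0.38 without training heart 4 and -0.16 without training heart 2.

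**Figure D3:**
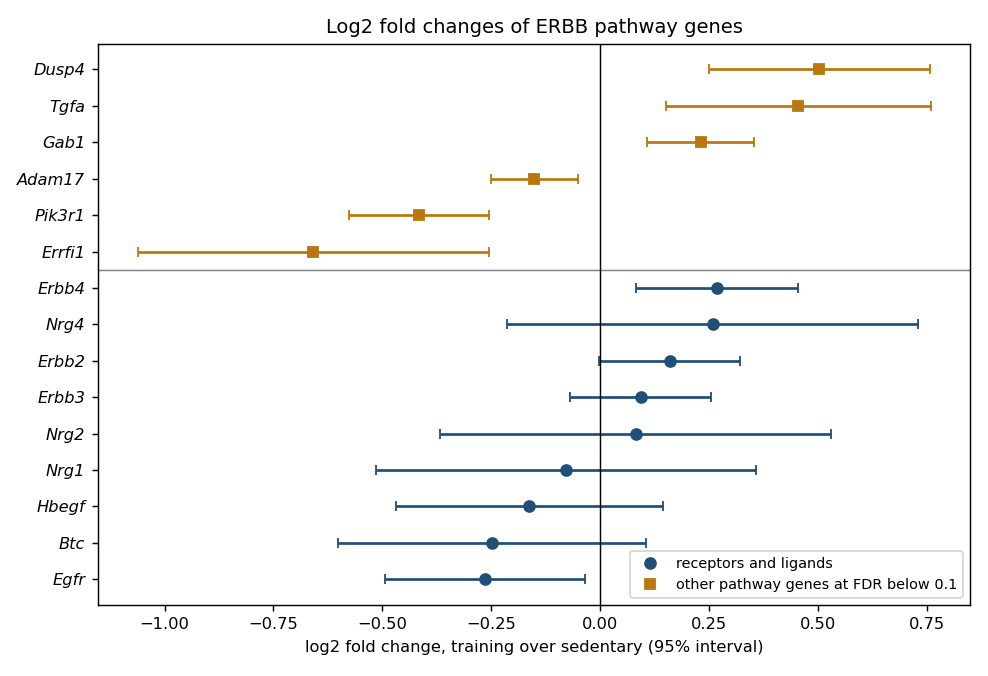
Log2 fold change of training over sedentary hearts with its 95% interval from edgeR, for the 9 receptors and ligands (blue) and the 6 other pathway genes called at an FDR below 0.1 (orange). The intervals of Erbb4 (0.08 to 0.45) and Egfr (-0.49 to -0.03) leave out 0, while those of the other 7 receptors and ligands include it.

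The dimers that form depend on the relative amounts of the receptor proteins in a cell, which were not measured. The ratios here are of RNA counts in whole hearts, over all cell types and not divided by length. Such ratios within a heart do not depend on the scaling of the library. Of 5 ratios of counts that were compared, that of Egfr to Erbb2 differed most. It was 0.767, 0.683, 0.874, 0.619 and 0.848 in the training hearts and 0.827, 0.919, 1.01, 1.08 and 1.31 in the sedentary hearts. The groups overlapped by sedentary heart 1, which lay below 2 of the training hearts. The ratio in the training hearts was 0.74 of that in the sedentary hearts on the geometric mean (log2 difference -0.43, p = 0.0238 in an exact two-sided permutation test over 252 assignments, adjusted p = 0.119 over the 5 ratios), and it did not pass after adjustment. The smallest p that this test can give is 0.00794. Without sedentary heart 1, by which the groups had overlapped, the exact permutation p was 0.0159 and the adjusted p 0.0794. This p is the smallest that the test can give with 9 hearts. Without any 1 of the other 9 hearts the adjusted p was between 0.159 and 0.238.

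Erbb4 to Erbb2, the neuregulin receptor pair of cardiomyocytes, had a median ratio of 1.40 in the training and 1.20 in the sedentary hearts (log2 difference of the means 0.11, exact permutation p = 0.373, adjusted p = 0.54). Erbb3 to Erbb2 had medians of 1.39 and 1.54 (log2 difference -0.07, exact permutation p = 0.54, adjusted p = 0.54). Between ligands, Nrg1 to Nrg4 had medians of 1.03 and 1.24 (log2 difference -0.23, exact permutation p = 0.452, adjusted p = 0.54). Hbegf to Nrg1 had medians of 8.74 and 9.29 (log2 difference -0.18, exact permutation p = 0.508, adjusted p = 0.54). None of these 4 ratios differed beyond the spread between hearts.

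**Figure D4:**
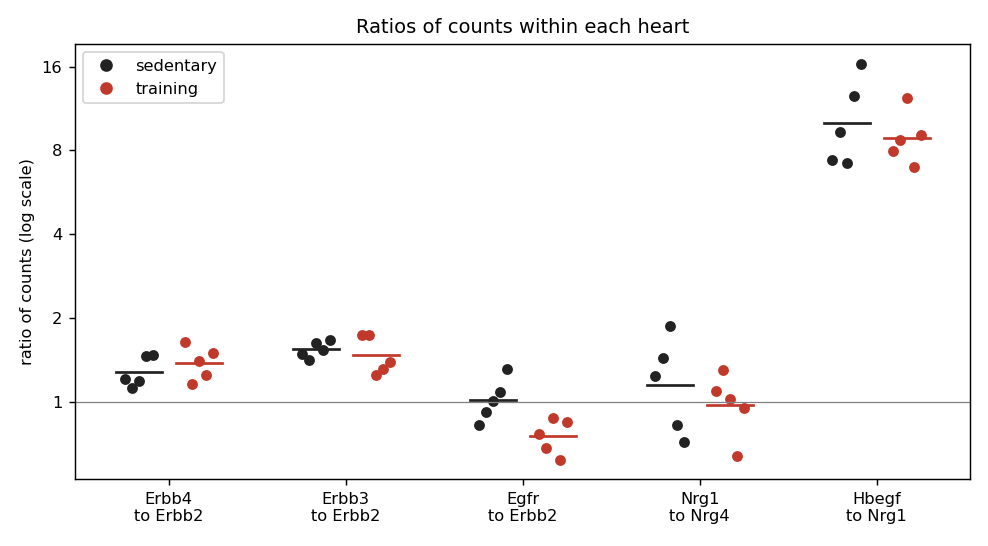
Ratio of counts of 2 genes within each heart on a log scale, sedentary in black and training in red, with the geometric mean of each group as a bar. For Egfr to Erbb2 the training hearts lie between 0.619 and 0.874 and the sedentary hearts between 0.827 and 1.31.

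The other genes of the pathway were taken from 6 lists with 84 genes, 79 of them tested. The edgeR test called 3 higher and 3 lower (7.59%, beside 7.01% of all tested genes), and the median log2 fold change was 0.01. With the atrial score as a covariate 2 of the 79 were called, but calls over all tested genes also fell, from 1084 to 62. A call lost in that fit is therefore not particular to the gene. Within the 79, the hearts of the groups did not overlap for 3 genes, Pik3r1, Gab1 and Adam17, beside 5.06% of all tested genes. In each list, the called genes were few and the median stood near 0, other than in the lists of further ligands and of ERK targets.

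Among 6 further ligands of the family, Areg, Epgn and Nrg3 did not pass the filter on low counts. Egf, Tgfa and Ereg were all above 0 in log2 fold change, with 1 called by the test (2.75% of all genes were called higher). Tgfa, a ligand of EGFR, rose from 2.38 ± 0.494 CPM in the sedentary to 3.27 ± 0.375 CPM in the training hearts (SD, n = 5 each), with overlapping ranges of 1.90 to 2.98 and 2.89 to 3.69 CPM. Its log2 fold change was 0.45 (SE 0.142, adjusted p = 0.0955, edgeR with Benjamini-Hochberg adjustment). The call was lost without training heart 1, 3, 4 or 5 or sedentary heart 2, 3 or 5, with adjusted p between 0.121 and 0.206. With the atrial score as a covariate Tgfa was at a log2 fold change of 0.16 (adjusted p = 0.749, edgeR with Benjamini-Hochberg adjustment). Ereg was at 0.366 and 0.198 CPM on average, with a log2 fold change of 0.87 and an adjusted p of 0.221 (edgeR, Benjamini-Hochberg).

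The 9 genes of ligand shedding and its trafficking held 0 higher and 1 lower call (4.26% of all genes were lower). Adam17, the protease that releases HBEGF, TGF-α and neuregulins from the membrane, fell from 37.0 ± 1.04 to 33.3 ± 1.95 CPM (SD, n = 5 each). All training hearts (30.8 to 35.4 CPM) were below all sedentary hearts (35.9 to 38.5 CPM). This was a log2 fold change of -0.15 (SE 0.046, adjusted p = 0.0928, edgeR with Benjamini-Hochberg adjustment). It kept its call only without training heart 2 or sedentary heart 1 and lost it without any 1 of the other 8 hearts, with adjusted p between 0.101 and 0.203. With library totals alone in place of TMM factors Adam17 was at -0.10 on the log2 scale (adjusted p = 0.284, edgeR with Benjamini-Hochberg adjustment), and with the atrial score as a covariate at -0.09 (adjusted p = 0.612, same test).

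Of 30 adaptors and kinases that carry the signal inward, 29 were tested, with 1 called higher and 1 lower (2.75% and 4.26% of all genes) and a median log2 fold change of 0.02. Pik3r1, the regulatory p85α subunit of phosphoinositide 3-kinase to which phosphorylated ERBB3 binds, was at 211, 170, 225, 183 and 216 CPM in the training hearts and at 260, 253, 251, 298 and 278 CPM in the sedentary hearts. Each training heart was below each sedentary heart. It fell by a log2 fold change of -0.42 (SE 0.075, adjusted p = 0.0153, edgeR with Benjamini-Hochberg adjustment), and it was called without any 1 of the 10 hearts and with the atrial score as a covariate (log2 -0.49, adjusted p = 0.0851).

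Gab1, the docking protein that links receptors to phosphoinositide 3-kinase and SHP2, was at 62.9, 64.1, 60.7, 65.7 and 72.6 CPM in the training hearts and at 49.7, 57.8, 54.9, 55.8 and 59.6 CPM in the sedentary hearts. Here each training heart was above each sedentary heart. It rose by a log2 fold change of 0.23 (SE 0.057, adjusted p = 0.0448, edgeR with Benjamini-Hochberg adjustment) and passed without 9 of the 10 hearts, with an adjusted p of 0.101 without training heart 4. With the atrial score held constant its log2 fold change was 0.35 (adjusted p = 0.0736, edgeR with Benjamini-Hochberg adjustment).

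The 6 chaperones and scaffolds of the receptors, among them Hsp90aa1 and Cdc37, held 0 calls by edgeR and 0 genes with an unadjusted p under 0.05, with log2 fold changes between -0.13 and 0.07. Of the 21 brakes on the receptors, 0 were called higher and 1 lower (2.75% and 4.26% of all genes). Errfi1, which binds and blocks the EGFR kinase, was at 16.5, 17.3, 25.4, 28.6 and 29.5 CPM in the training hearts and at 22.8, 37.3, 39.6, 46.3 and 38.8 CPM in the sedentary hearts. The groups overlapped by sedentary heart 1 alone, which was below 3 of the training hearts. Errfi1 fell by a log2 fold change of -0.66 (SE 0.188, adjusted p = 0.0717, edgeR with Benjamini-Hochberg adjustment). The call was lost without training heart 1, 2 or 3 or sedentary heart 2, 3, 4 or 5, with adjusted p between 0.118 and 0.154, and also with the atrial score as a covariate (log2 -0.56, adjusted p = 0.466). Errfi1 responds to glucocorticoids. The 8 genes of the glucocorticoid response had a median log2 fold change of -0.30, with Fkbp5 and Cdkn1a called lower (4.26% of all genes were). These 8 genes summed to between 619 and 866 CPM in the training and between 839 and 1108 CPM in the sedentary hearts. Their part in the Errfi1 result was not tested.

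Of 12 target genes of ERK, the kinase at the end of the cascade, 11 were tested, with 8 above 0, a median log2 fold change of 0.24 and 1 call, higher (2.75% of all genes). Dusp4, a phosphatase that turns ERK off in the nucleus, was at 6.82, 5.47, 8.59, 7.00 and 8.13 CPM in the training hearts and at 4.35, 5.46, 4.95, 4.92 and 5.75 CPM in the sedentary hearts. Training heart 2 alone lay within the sedentary range. Dusp4 rose by a log2 fold change of 0.50 (SE 0.118, adjusted p = 0.0376, edgeR with Benjamini-Hochberg adjustment) and was called without any 1 of the 10 hearts, but not with the atrial score as a covariate (log2 0.57, adjusted p = 0.236). Egr1, Etv5 and Phlda1 of the same list, at log2 fold changes of 0.38, 0.29 and 0.27, had unadjusted p values under 0.05 (edgeR). Their adjusted p values were 0.207, 0.144 and 0.196 (edgeR, Benjamini-Hochberg). With Dusp4, 4 of the 11 tested genes had such an unadjusted p (20.0% of all genes did). Dusp6, Fos and Ccnd1 were below 0, at -0.08, -0.10 and -0.02, with adjusted p values of 0.694, 0.887 and 0.881 (same test). The summed level of the list was between 162 and 193 CPM in the training and between 144 and 184 CPM in the sedentary hearts.

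The genes whose levels followed each receptor or ligand most closely from heart to heart, after removal of the group means, were sought among about 10024 protein-coding genes that averaged 5 CPM or more. All r values are Pearson correlations of log2 CPM over the 10 hearts, given as a description without a test, and hearts share marker levels and depth. Egfr was most like Rlim, a ubiquitin ligase (r = 0.96), and Thbd, the thrombin receptor of endothelium (r = 0.95). Hbegf was most like Arhgap1 (r = 0.96) and Cavin1, a coat protein of caveolae (r = 0.95). Besides Kcnj3, Erbb4 was most like Zfp467 (r = 0.94).

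For Erbb2 these genes were Cdon, a cell surface co-receptor of hedgehog signaling (r = 0.92), and Anapc15 (r = 0.91). For Erbb3, Paf1, a factor of RNA polymerase II elongation, is given (r = 0.92). Among the low ligands, Nrg1 was most like Aopep (r = 0.96) and Osbpl9 (r = 0.93), and Nrg2 was most like Selenos (r = 0.92) and Ssbp2 (r = 0.92). Nrg4 was most like Ndrg3 (r = 0.94) and Golga2 (r = 0.91), and Btc was most like Clmp (r = 0.89) and Thrsp, a gene of fat synthesis (r = 0.88).

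**Figure D5:**
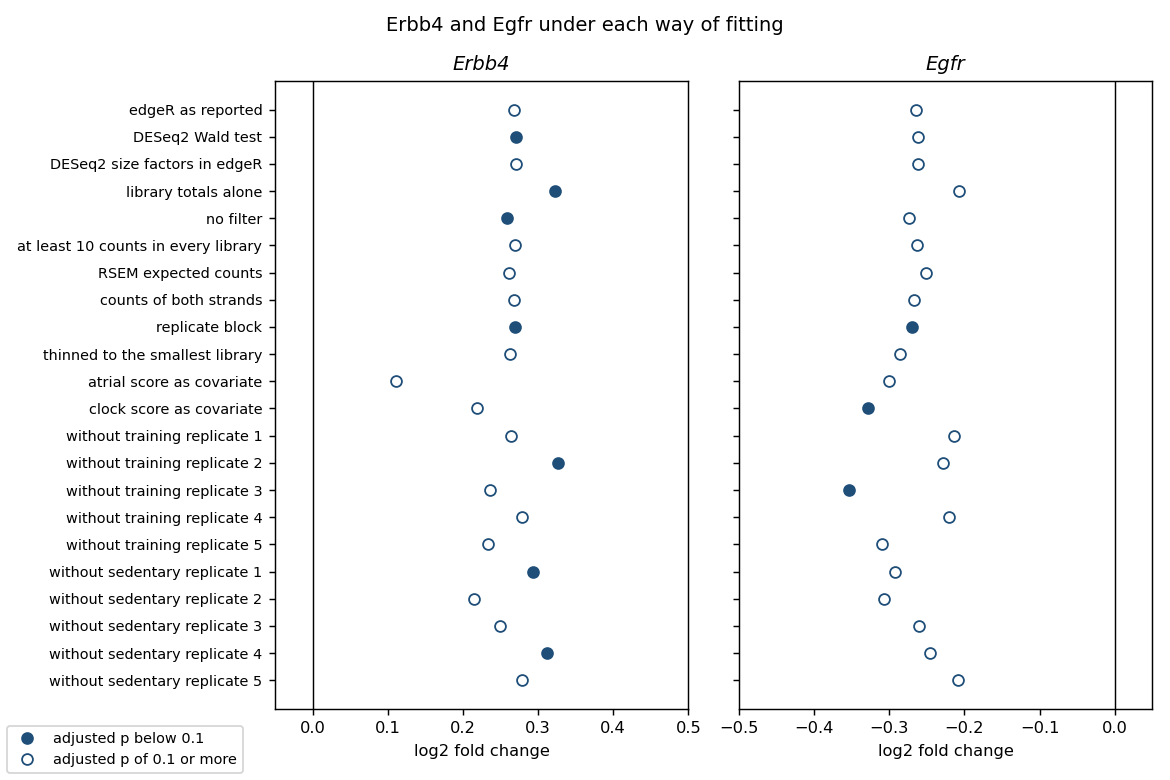
Log2 fold change of Erbb4 and Egfr in the reported fit and in 21 alternatives, filled where the adjusted p was below 0.1. Erbb4 stays above 0, between 0.11 and 0.33, and Egfr below 0, between -0.35 and -0.21. Of the 21 alternatives, 7 call Erbb4 and 3 call Egfr.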

How the data were processed

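Hearts of 5 training and 5 sedentary mice were grouped by their labels. For each gene and strand the authors deposited counts of reads that map to 1 place, not normalized (STAR 2.7.10a, GRCm39), and expected counts and TPM from RSEM 1.3.3, whose strand setting is not stated. Reverse-strand counts were used (median 95.4% of stranded counts). Multimapping reads (17.9% to 19.2%), reads on no gene (4.15% to 4.89%) and ambiguous reads (0.94% to 0.998%) were left out. GENCODE M39 gave symbols for 56017 of 56748 identifiers. A second, short identifier named Nrg1 was at 0 in all hearts and left aside.

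The main test was edgeR's (version 4.0.16, R 4.3.3) quasi-likelihood F test after filterByExpr and TMM, with Benjamini-Hochberg adjustment and an FDR below 0.1, and DESeq2 1.42.0 was an alternative. Expected counts were rounded for fits. Ratios were tested by exact permutation in scipy 1.17.1. CPM were logged with a prior count of 2. Steps were tested on simulated data. Named were all members, up to 4 called genes per pathway list and direction, and the 2 genes most like each member, of which 1 is not reported here. Ereg, Egr1, Etv5, Phlda1, Dusp6, Fos, Ccnd1 and Ucp1 were named after their values were seen. Alternatives were other scalings, filters and counts, thinned libraries, mouse number as a block, atrial or clock scores as covariates, and each heart left out. Members, lists and covariates were chosen with earlier results of these data known.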

Additional observations from a re-analysis of the deposited data

Results flagged for a closer look

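In 40 sets of 5 values from 1 group that were checked for a heart far from the rest, 1 was found, and chance gives about 5% of sets. It was Nrg4 in training heart 4, at 3.61 CPM, while the other training hearts were between 1.56 and 2.09 CPM. The gap to the nearest heart was 0.741 of the whole range, above the critical value of 0.71.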

How the results depend on the processing

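Of the 9 receptors and ligands, 0 were called in the reported fit. The count was 1 with DESeq2, with library totals alone and without a filter (Erbb4 each time), 1 with the clock score as a covariate (Egfr) and 2 with the replicate number as a block (Erbb4, adjusted p = 0.0529, and Egfr, adjusted p = 0.0923, edgeR with Benjamini-Hochberg adjustment). Leaving out 1 heart gave 0 to 1. Pathway genes called, 6 as reported, were 2 with the atrial score as a covariate, 3 at an FDR below 0.05 and 3 to 9 with 1 heart left out. All genes called, 1084 as reported, were 62 with the atrial score, 505 at an FDR below 0.05 and 512 to 1490 with 1 heart left out. They were 1473 with DESeq2, 1368 with library totals alone, 1496 with the clock score and 1137 with the block, each of 15454 tested. Without a filter 1065 of 30041 were called. With library totals alone 1029 were higher and 339 lower, and the median of all genes moved to 0.05. The cause was not tested.

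The sign turned for Nrg1 with the clock score (0.18) and over left-out hearts (-0.240 to 0.0422), for Nrg2 with the atrial score (-0.36) and over left-out hearts (-0.0676 to 0.254), and for Nrg4 with the atrial score (-0.0137). The Egfr to Erbb2 ratio ranged from -0.51 to -0.34 over left-out hearts. With hearts paired by number its p was 0.0625 and its adjusted p 0.3125 (exact sign-flip permutation). Flips of 5 pairs can give no smaller p, so this test could not have called the ratio by itself. The shared mouse numbers are no pairing: deviations of hearts with the same number had correlations of -0.097 to 0.159, and 1 of 5 training hearts was most like its own number. Nrg1, Nrg2, Nrg4 and Btc had 41 to 141 counts per heart, and their coefficients of variation between hearts (13.8% to 38.3%) exceeded those of counting alone (10.8% to 13.1%).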
